A study of Homo sapiens with 18 samples.

Results

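The α- and β-globin loci carry the genes for the protein chains of haemoglobin, and peaks of H3K27ac and CTCF around the 10 human globin genes were examined in HEK293T cells. The β-globin genes HBB, HBD, HBG1, HBG2 and HBE1 lie on chromosome 11 and the α-type genes HBZ, HBM, HBA2, HBA1 and HBQ1 on chromosome 16. A peak was a member when it shared at least 1 bp with the GENCODE body of a globin gene plus 50 kb on either side (hg38 coordinates). This gave a β-globin window at chr11:5175464-5555652 and an α-globin window at chr16:92728-231179, which held 107 of the 506359 peaks of the 12 peak lists, 27 and 80 respectively. HEK293T cells are transformed cells first grown from a human embryonic kidney. ChIP-seq libraries were made with antibodies against H3K27ac, the acetylated lysine 27 of histone H3 that marks active promoters and enhancers, and against CTCF, which binds DNA and holds the bases of chromatin loops. Cells were either untreated (CTRL) or exposed for 1 day to 1 mM valproic acid (VPA), which blocks histone deacetylases, with 3 replicates in each of the 4 groups. All libraries came from this 1 cell line, and no source used here says whether the replicates were separate cultures, so tests measure the spread between these libraries, which may be technical.

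In red cells, each haemoglobin pairs α-type with β-type chains, and the genes of each cluster are switched in turn during development. HBZ and HBE1 encode the embryonic chains, HBG1 and HBG2 the fetal β-type chains, and HBB and HBD the adult ones, while HBA1 and HBA2 encode the α chain of fetal and adult haemoglobin. HBM and HBQ1 are α-like genes with little known protein product. The β cluster is controlled by a distant locus control region and lies among olfactory receptor genes, whereas the α cluster is controlled by enhancers within introns of the neighbouring gene NPRL3 and lies among genes that most cells use. Histone deacetylase inhibitors, VPA among them, are known to raise fetal globin in red cells.

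The cell type was first checked by promoter peaks, with a promoter taken as the start site of the MANE Select transcript plus 1 kb on either side. H3K27ac was present in 6 of 6 libraries at 5 of 5 kidney development factors (PAX2, LHX1, EYA1, SALL1 and WT1), at 5 of 5 genes of every cell, and at 0 of 4 blood genes (PTPRC, SPI1, CD34 and CD3E). Of 14 erythroid genes, 2 carried it in all 6 libraries, namely EPOR, the erythropoietin receptor, and SLC25A37, a mitochondrial iron carrier. A further 11 erythroid genes, among them the anion exchanger SLC4A1 and the α-globin chaperone AHSP, carried none in any library, and ANK1 carried it in 2 CTRL and 1 VPA libraries. Over 19103 protein-coding genes, 61.0% had an H3K27ac promoter peak in all 6 libraries and 30.5% in none.

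Library depth could be compared only through the lowest local background of each list, which was 3.51 to 3.95 fragments. Lists held 26299 to 29799 H3K27ac peaks in CTRL and 38441 to 40992 in VPA, and 36469 to 58782 CTCF peaks. Replicate 1 had the shortest list of each group and was compared with replicates 2 and 3, which were not compared with each other. Fragments over the summit were divided by the lowest local background of their library. At regions with a CTCF peak in all 6 libraries, this value in replicate 1 was divided by the mean of replicates 2 and 3. From the 5th to the 95th percentile of 27794 regions, the ratio was 0.0754 to 2.51 in CTRL (median 1.53) and 0.109 to 3.64 in VPA (median 0.734). The same range for the 18407 H3K27ac regions was 0.539 to 1.59 in CTRL and 0.663 to 1.64 in VPA. Values are therefore given per library below.

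The CTCF sites that the results turn on are shown here as the best match to the CTCF core motif within 100 bp of the summit, read from hg38 on the strand of the motif, 5′ to 3′. Capitals mark the 14 bases of the motif match and lower case the 8 bases on either side. They comprise the 5 CTCF regions that all 6 libraries shared and the nearest matching region on each side of the β-globin genes.
NPRL3 intron 9, chr16:97053-97082, minus strand: cagcatggCCACCAGGGGGCAGcagaggct
NPRL3 intron 7, chr16:107198-107227, plus strand: tttaatatCCACTAGGTGGCGCtgggttgc
NPRL3 intron 4, chr16:117920-117949, minus strand: ccccaactCCCCCTGGTGGCAGaacttgta
downstream of HBQ1, chr16:181565-181594, minus strand: ggctcgcgCCGGGAGGGGGCGCtgttccct
near OR51M1, chr11:5380922-5380951, minus strand: caatgtagCCACCAGGGGGAGCattcagcc
beyond HBB, chr11:5204958-5204987, plus strand: tctggacaCCACTAGGGGTCAGaagtagtt
beyond HBE1, chr11:5291427-5291456, minus strand: tgttatgaCCACTAGAGGGAAGaagatacc

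The motif was searched on both strands with up to 2 mismatches. The sites in NPRL3 introns 9 and 7 matched it with 0 mismatches, those near OR51M1, beyond HBB and beyond HBE1 with 1, and those in NPRL3 intron 4 and downstream of HBQ1 with 2. Of the 16 CTCF regions of the windows, 10 held a match, 5 of 9 in the β window and 5 of 7 in the α window. Over all CTCF peaks, 58.3% to 69.7% per library held a match, against 5.53% to 6.09% of equally wide windows 2 kb away. The sites beyond HBB and beyond HBE1 lay on opposite strands, with their motifs pointing towards the globin genes between them. The site beyond HBB was called in VPA replicate 3 alone, and the site beyond HBE1 in replicates 2 and 3 of both treatments. A peak at both sites was thus seen in VPA replicate 3 only. At the NPRL3 intron 4 site the centre of the motif was 1 bp from the summit, and at the other 4 regions found in all libraries it was 4 to 18 bp away.

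No H3K27ac peak was called in the β-globin window in any of the 6 libraries, CTRL or VPA. None of the promoters of HBB, HBD, HBG1, HBG2 and HBE1 carried the mark, and neither did the promoters of the 14 other protein-coding genes of the window, most of them olfactory receptor genes. For comparison, 30.5% of protein-coding genes had no H3K27ac promoter peak in any library. Within 50 kb of the gene body, 8.76% of protein-coding genes (1673 of 19103) had no H3K27ac peak in any library. The fetal genes HBG1 and HBG2 were at 0 peaks in 3 of 3 VPA libraries, as in 3 of 3 CTRL libraries. An absence of called peaks does not exclude a level below the detection limit, since the lowest summit called held 11 fragments.

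The stretch without H3K27ac reached beyond the window on both sides. Around HBB it was 987.836, 987.31 and 987.352 kb long in CTRL replicates 1, 2 and 3 and 987.491, 986.859 and 986.819 kb in VPA. Its ends varied by less than 1 kb between libraries, and it held 41 protein-coding start sites in all of them, 31 of olfactory receptor genes. The nearest H3K27ac summit was 369 to 370 kb from the start of HBB in the 6 libraries and 326 to 327 kb from that of HBE1. Depending on the library, 96.6% to 98.1% of protein-coding genes had a nearer H3K27ac summit than HBE1, and 97.2% to 98.4% a nearer one than HBB.

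CTCF peaks were present in the β-globin window, and they lay outside the block of globin genes as defined by MANE Select transcripts. Their number was 2, 6 and 6 in CTRL replicates 1 to 3 and 1, 4 and 8 in VPA, so replicate 1 had the fewest in both treatments. CTRL averaged 4.67 ± 2.31 peaks and VPA 4.33 ± 3.51 (SD over 3 libraries each), a difference smaller than the spread (exact permutation test, two-sided, p = 1). Peaks covered 2479 ± 1416 bp of the window in CTRL compared with 2232 ± 1791 bp after VPA (exact permutation test, p = 0.9). With 3 libraries against 3 the smallest possible p is 0.1.

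**Figure D1:**
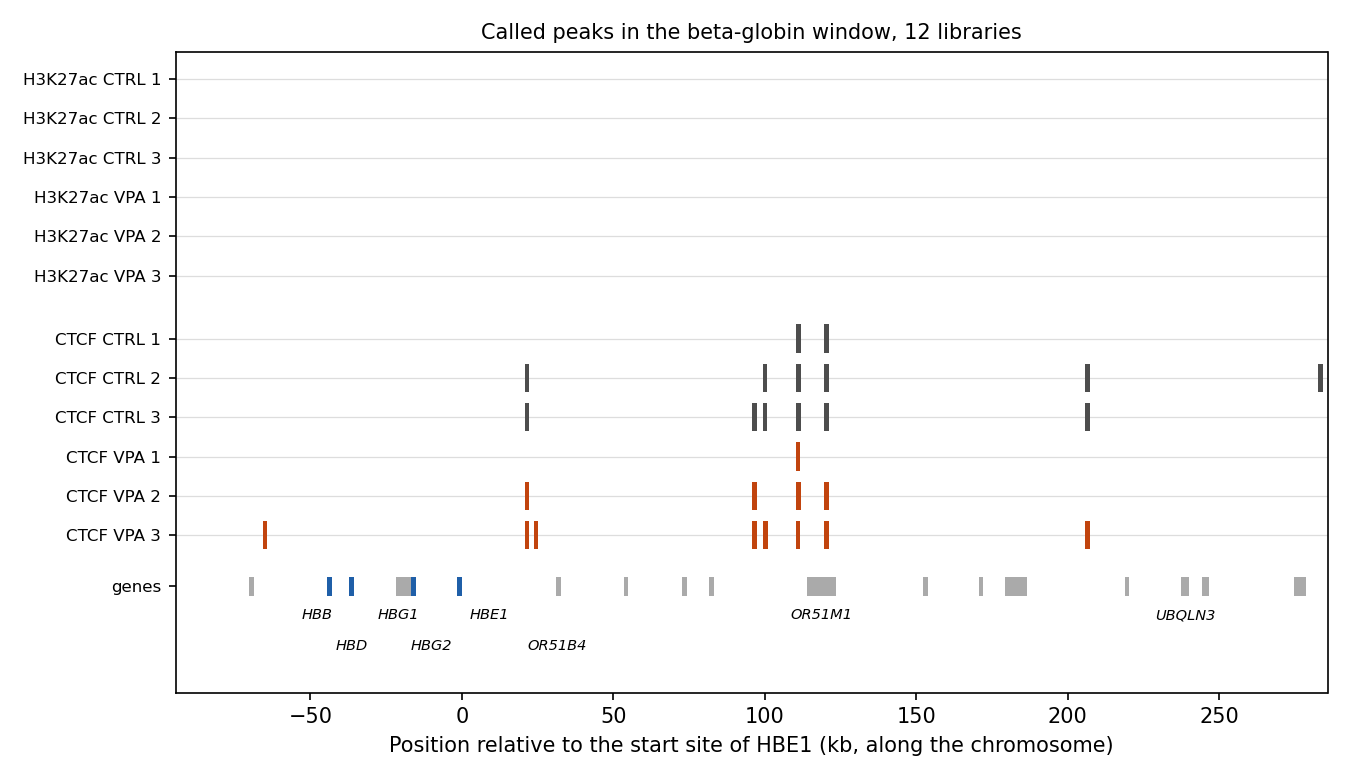
Called peaks (bars) of the 12 libraries in the β-globin window, by position in kb along the chromosome from the start site of HBE1, with CTRL libraries in grey and VPA libraries in orange. Short bars are widened to be visible, and globin genes are blue and other genes grey. The 6 H3K27ac rows are empty, and the CTCF peak near OR51M1 is the only one found in all 6 libraries.

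These CTCF peaks merged into 9 regions. None touched the MANE Select transcript of a globin gene. However, 6 of the 9 lay in introns of longer annotated transcripts of HBE1 and HBG2. The region over an exon of OR51M1 also lay within the annotated bodies of HBE1 and HBG2. No CTCF peak lay within 1 kb of the start of any of the 5 β-globin genes. Over the genome, 57.0% of protein-coding promoters had no CTCF peak in any library. The strongest region, chr11:5380485-5381528, lay 2.86 kb from the start of OR51M1, an olfactory receptor gene, and 111 kb from that of HBE1. Fragments over its summit numbered 32, 392 and 378 in CTRL replicates 1, 2 and 3 and 43, 448 and 365 in VPA. Replicate 1 was the low library in both treatments, and the treatments overlapped. Divided by library background as above, its fragments were 0.0858 times the mean of the other CTRL replicates and 0.104 times that of the other VPA replicates. Fold enrichment over local background was 7.09, 79.7 and 66.0 in CTRL and 9.40, 70.2 and 38.6 in VPA. On the log2 scale, with libraries centred on their medians, VPA minus CTRL was −0.07 (SE 0.61, limma adjusted p = 1.00, 95% interval −1.27 to 1.14).

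The region beyond HBE1, chr11:5291081-5291706, was 21.4 kb from the HBE1 start, on the side of the locus control region. It had a peak in replicates 2 and 3 of both treatments, with 114 and 110 fragments in CTRL and 55 and 92 in VPA. No peak was called there in replicate 1 of either treatment. The region beyond HBB, chr11:5204838-5205199, 22.1 kb from the HBB start, was called in VPA replicate 3 alone, with 33 fragments. A region at chr11:5476124-5476753 was called with 201 and 151 fragments in CTRL replicates 2 and 3, and with 144 in VPA replicate 3. At chr11:5390004-5390608, over exon 3 of OR51M1, 5 of 6 libraries had a weak peak of 23 to 32 fragments. The 4 remaining regions were called in 1 to 3 libraries with 16 to 39 fragments. None of the 9 regions was found in 3 of 3 libraries of one treatment and 0 of 3 of the other, and no CTCF summit of the β window lay within an H3K27ac peak.

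In the α-globin window H3K27ac peaks numbered 5, 6 and 6 in CTRL replicates 1 to 3 and 5, 12 and 10 in VPA. Replicates 2 and 3 had more peaks in VPA, and replicate 1 had the same number in both treatments. CTRL averaged 5.67 ± 0.577 peaks and VPA 9 ± 3.61 (SD over 3 libraries each), a difference that the exact permutation test did not separate from the spread (p = 0.4, adjusted p = 1 over 8 window tests). They covered 5006, 7975 and 8075 bp in the CTRL replicates, compared with 5996, 13388 and 12888 bp in the VPA replicates. It was longer in VPA for 3 of 3 replicate numbers, by 990 bp in replicate 1 and by a mean of 5113 bp in replicates 2 and 3, with means of 7019 ± 1744 bp for CTRL and of 10757 ± 4131 bp for VPA (exact permutation test, p = 0.3, and p = 0.25 with replicate number as a block, the smallest that block allows). The VPA lists were longer over the whole genome, and with each list limited to its top 26299 peaks, the length of the shortest, VPA exceeded CTRL by 0.333 peaks (exact permutation test, p = 1) and 2014 bp (exact permutation test, p = 0.5).

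The H3K27ac peaks of the α window merged into 14 regions. Of these, 4 were found in all 6 libraries, at the promoters of NPRL3 and LUC7L and over HBZ and HBQ1, where 33.2% of all 55382 H3K27ac regions were found in all 6 libraries. A further 7 regions were found in 1 library each, and in all 7 cases this was VPA replicate 2 or 3. These libraries had the longest H3K27ac lists, with 40992 and 40817 peaks. The share of such regions over the genome was not computed, so the count is not read as a trait of the α window. Regions called in every VPA library and in 0 CTRL libraries made up 4.12% of all H3K27ac regions, and the reverse 0.139%, and the α window held 0 of either kind. The density of protein-coding start sites was 5.056 per 100 kb in the α window and 4.998 in the β window. In the β window 11 of the 19 start sites belonged to olfactory receptor genes, and in the α window 0 of 7. Whether gene content bears on the difference in H3K27ac was not tested. Just outside the right edge of the α window, the promoter of FAM234A carried H3K27ac in all 6 libraries with 334 to 486 fragments, 1.55 kb beyond the edge, and the nearest region inside was the LUC7L promoter.

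**Figure D2:**
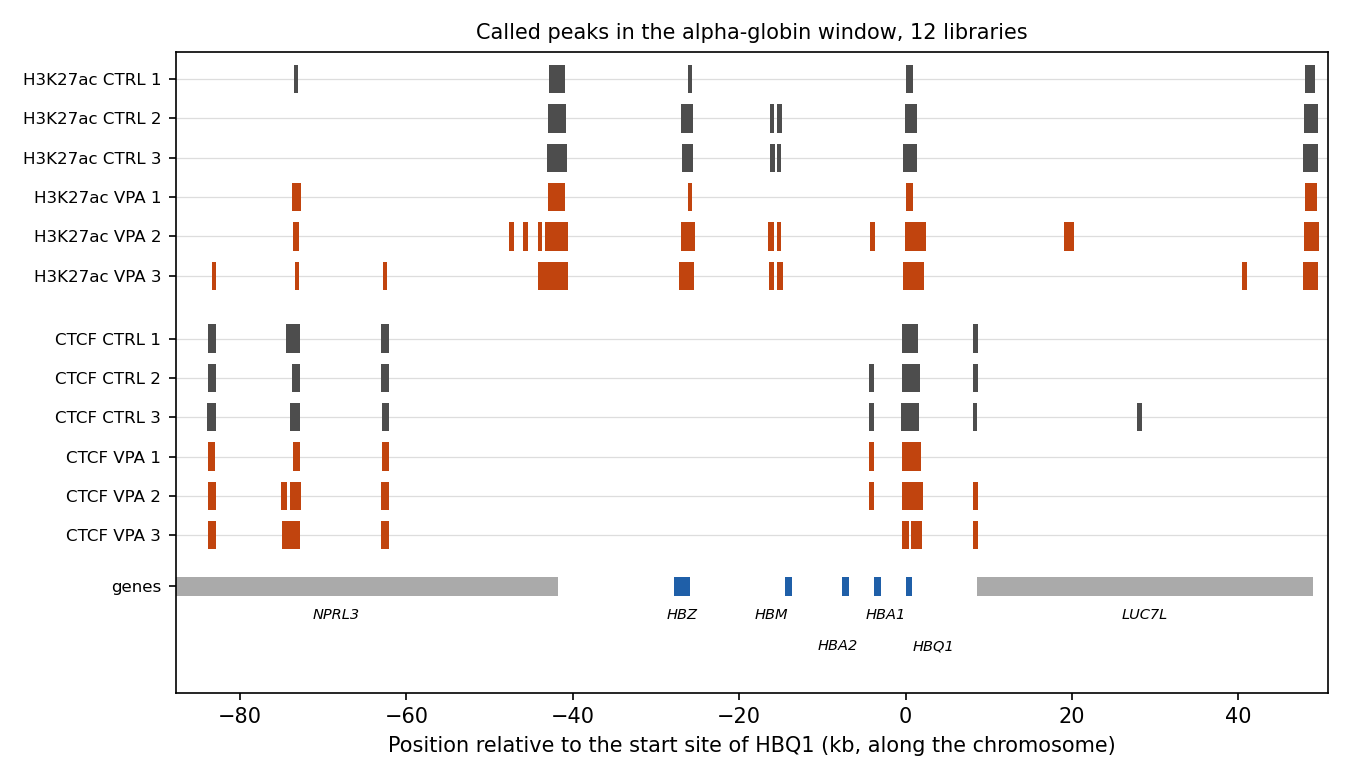
Called peaks (bars) of the 12 libraries in the α-globin window, by position in kb along the chromosome from the start site of HBQ1, with CTRL libraries in grey and VPA libraries in orange. Short bars are widened to be visible, and globin genes are blue and other genes grey. H3K27ac bars recur in all 6 libraries at the NPRL3 promoter, HBZ, HBQ1 and the LUC7L promoter. The H3K27ac bars found in 1 library are all in VPA replicates 2 and 3, which had the longest H3K27ac lists.

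HBQ1 (chr16:180459-181179, plus strand) was the only one of the 10 globin genes with an H3K27ac promoter peak in all 6 libraries. Over all protein-coding genes, 61.0% had such a peak in all 6 libraries. The merged region at HBQ1, chr16:180111-182905, covered the 3 exons of the gene. Fragments over the summit numbered 114, 100 and 70 in CTRL replicates 1, 2 and 3 and 100, 86 and 82 in VPA, and the treatments overlapped. Fold enrichment was 2.62, 8.47 and 7.16 in CTRL and 2.25, 8.11 and 5.87 in VPA. The libraries of replicate 1 were the lowest in both treatments, with a local background of 42.9 and 43.95 fragments beside 8.92 to 13.1 in the other 4 libraries. The log2 fold change of fold enrichment was −0.10 (SE 0.41, limma adjusted p = 0.972, 95% interval −1.02 to 0.81). On fragments over the summit, centred on each library's median, the log2 fold change was 0.13 (SE 0.15, limma adjusted p = 0.531). Its sign depends on this centring and does not follow from the fragments as listed. The summits lay 324 to 528 bp downstream of the start in 5 libraries, inside the gene, and 871 bp downstream in VPA replicate 3, past its end. Compared with the other H3K27ac peaks of a library by −log10 q-value, this peak stood above 39.1% to 55.7% of them in CTRL and above 42.2% to 66.1% in VPA, where lists were longer.

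HBZ, the embryonic α-type gene (chr16:152644-154503, plus strand), carried H3K27ac over its 3′ part in all 6 libraries, at chr16:153217-155176, which touched exons 2 and 3. Its summits lay 1.85 to 2.00 kb downstream of the start, so the peak reached into the promoter window only in replicates 2 and 3 of each treatment. Fragments numbered 106, 112 and 107 in CTRL and 134, 107 and 114 in VPA, again with overlap. Fold enrichment was 2.43, 8.42 and 9.87 in CTRL and 2.98, 7.37 and 9.01 in VPA, for a log2 fold change of 0.08 (SE 0.40, limma adjusted p = 0.979, 95% interval −0.82 to 0.97). On fragments over the summit, centred on each library's median, the log2 fold change was 0.31 (SE 0.15, limma adjusted p = 0.124). That value passed the threshold with the replicate block (limma adjusted p = 0.0251), as 24.9% of H3K27ac regions did in this direction. Its size depends on the centring, and as listed the fragments of replicate 2 were lower in VPA than in CTRL. With replicates 2 and 3 alone, the log2 fold change of fold enrichment was −0.15 (SE 0.32, limma adjusted p = 0.795).

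Beyond HBZ lies HBZP1, a pseudogene copy of it. H3K27ac was called there at chr16:163982-164691 in replicates 2 and 3 of both treatments, with 42 and 37 fragments in CTRL and 57 and 41 in VPA. A neighbouring region at chr16:165013-165712, 0.793 kb before the start of HBM, was called in the same 4 libraries with 24 and 25 fragments in CTRL and 29 and 26 in VPA. With replicates 2 and 3 alone, the log2 fold change of fold enrichment was 0.49 over HBZP1 (SE 0.33, limma adjusted p = 0.36) and 0.098 before HBM (SE 0.32, limma adjusted p = 0.876). HBM, which had no other peak at its promoter, was thus marked in 2 CTRL and 2 VPA libraries. At the HBZ peak, replicate 1 had a local background of 43.0 fragments in CTRL and 44.3 in VPA. The background is not known where no peak was called, so the lack of a call in replicate 1 says little. Copies of sequence limit what can be said of this stretch. Of the 50-base words of the region over HBZP1, 100% occurred again elsewhere in the windows, compared with 48.0% in the region over HBZ, 13.5% in the region before HBM and 0.3% in the region over HBQ1, and how reads with several matching places were treated was not stated.

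The major α-globin genes were almost free of H3K27ac. HBA2 (chr16:172876-173710) had no promoter peak in any library, and HBA1 (chr16:176680-177522) had a weak one in VPA replicate 2 alone, with 39 fragments and a fold enrichment of 3.17 at chr16:176190-176754. HBA1 and HBA2 are near-identical copies, and 74.3% and 75.1% of the 50-base words of their transcript spans were found again within the windows. For HBG1 and HBG2 these shares were 52.5% and 52.4%, and for HBZ 59.9%. They were at most 1.3% for HBB, HBD, HBE1, HBM and HBQ1. A peak or its absence at HBA1, HBA2, HBG1, HBG2 or HBZ may therefore involve reads of the copy.

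Of the genes flanking the α cluster, NPRL3, a regulator of nutrient signalling, and LUC7L, a splicing-related gene, had the strongest H3K27ac of the window. Fragments at the NPRL3 promoter (chr16:136283-139879) numbered 684, 555 and 538 in CTRL and 561, 440 and 426 in VPA. Each VPA value was lower than the CTRL value of its replicate number, but the groups overlapped. The log2 fold change of fold enrichment was −0.10 (SE 0.26, limma adjusted p = 0.950, 95% interval −0.69 to 0.50).

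At the LUC7L promoter (chr16:228212-230140) fragments numbered 738, 500 and 449 in CTRL and 488, 328 and 324 in VPA. Fold enrichment was 10.2, 53.0 and 28.3 in CTRL and 6.91, 23.3 and 22.5 in VPA, lower in VPA for 3 of 3 replicate numbers although the groups overlapped. The log2 fold change was −0.61 (SE 0.35, 95% interval −1.39 to 0.18), and it did not pass the threshold (limma adjusted p = 0.688). Libraries with the same H3K27ac replicate number deviated together, though replicate 2 correlated slightly better with another number (r = 0.607 against 0.585). The fit with replicate number as a block is therefore given beside it. There the change passed (SE 0.20, limma adjusted p = 0.0474), as 8.57% of H3K27ac regions did in this direction. With replicates 2 and 3 alone the log2 fold change was −0.75 and did not pass (SE 0.27, limma adjusted p = 0.0649). On fragments over the summit, centred on each library's median, the log2 fold change without the block was −0.37 (SE 0.10, limma adjusted p = 0.0186), where 27.1% of regions were called lower. With the block the limma adjusted p was 5.02e-05, where 35.3% were called lower. Without CTRL replicate 2 the log2 fold change of fold enrichment was −0.27 (limma adjusted p = 1.00), the smallest on leaving out a library.

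Across all 18407 H3K27ac regions with a peak in 6 of 6 libraries, limma without a block called 0.00% changed (0 regions higher and 0 lower in VPA, with 383 and 1091 at an unadjusted p under 0.05). With the replicate block it called 1187 higher and 1578 lower. Of the 4 regions of the α window, 0 were called without the block and 1, the LUC7L promoter, with it. For CTCF, 0.00% of 27794 regions were called in either direction (39 higher and 90 lower at an unadjusted p under 0.05).

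Within NPRL3, whose introns hold the known α-globin enhancers, H3K27ac was weak. The region at chr16:106769-107780, in intron 7, was called in CTRL replicate 1 with 18 fragments and in VPA replicates 1, 2 and 3 with 28, 36 and 31. By fragments, the VPA libraries were all above the CTRL library with a peak, and 2 of the 3 CTRL libraries had none. It was the region of the windows closest to the pattern of 3 VPA and 0 CTRL libraries. It had this pattern when CTRL replicate 1, the only CTRL library with a peak there, was left out. The share of all H3K27ac regions with the pattern on that omission was not computed, so the region is not read as a gain. Its fold enrichment was 3.29 in CTRL replicate 1 and 3.54, 3.73 and 2.59 in VPA, so VPA replicate 3 was below CTRL replicate 1. These values compare with 6.91 to 12.6 at the promoters of NPRL3 and LUC7L in replicate 1 and with 22.5 to 53.0 there in replicates 2 and 3. Another 4 regions in introns 9, 4 and 2 were called in VPA replicate 2 or 3 alone, with 19 to 27 fragments.

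**Figure D3:**
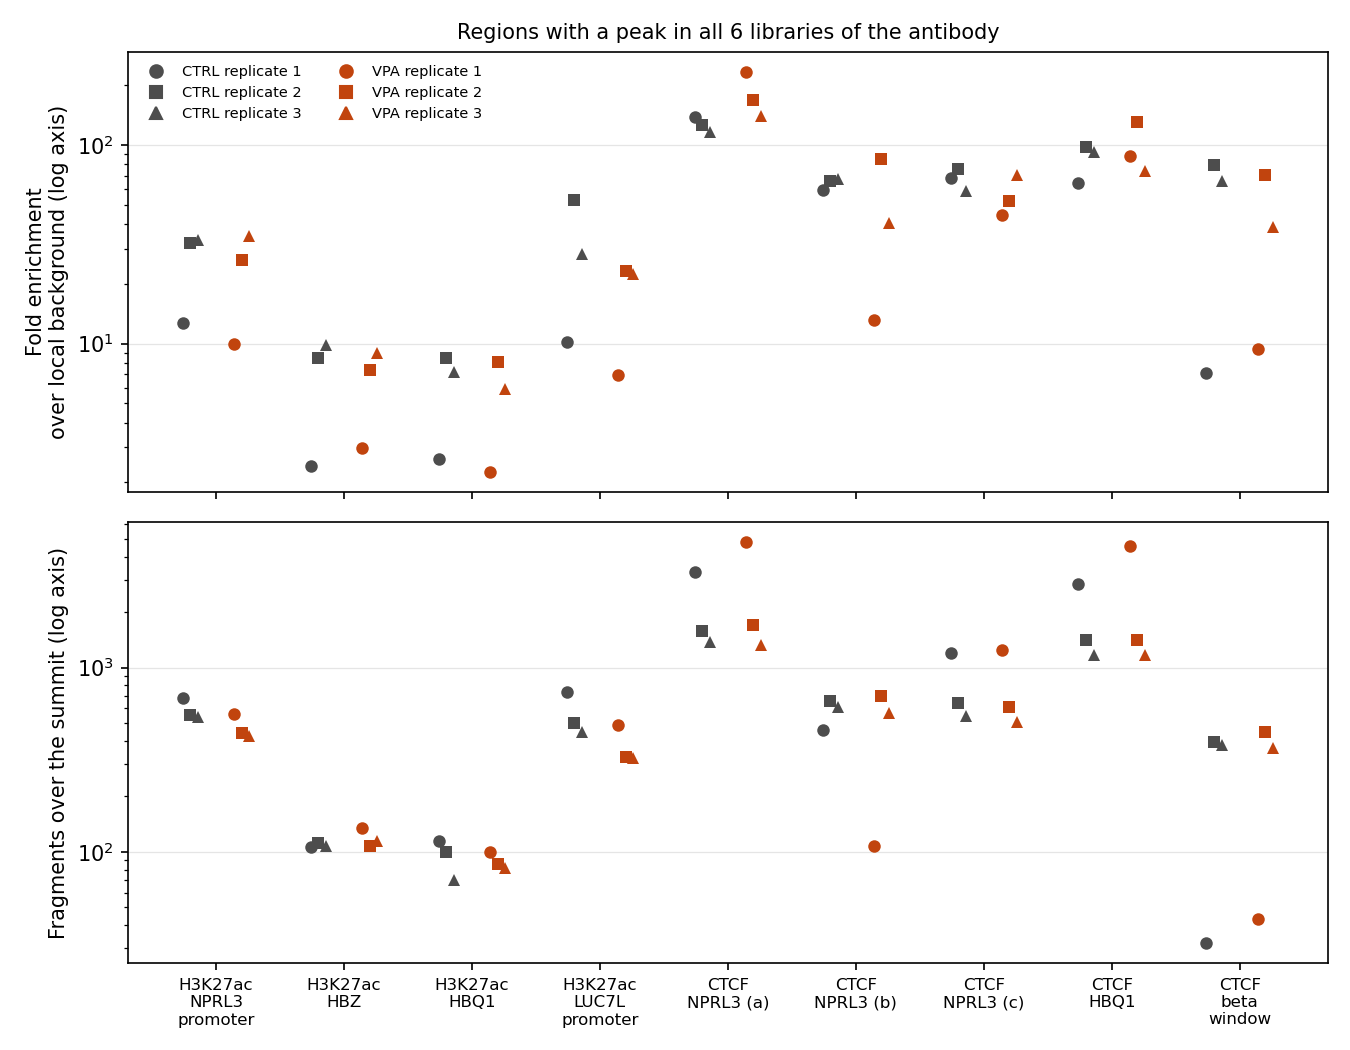
Fold enrichment over local background (upper panel) and fragments over the summit (lower panel), both on log axes, in each library at the 9 regions shared by all 6 libraries of an antibody. CTCF NPRL3 (a), (b) and (c) are the regions in introns 9, 7 and 4. Circles, squares and triangles are replicates 1, 2 and 3. H3K27ac fold enrichment is lowest in replicate 1 at all 4 regions, and CTCF fragments of replicate 1 are highest in NPRL3 (a) and (c) and HBQ1 and lowest in NPRL3 (b) and the β window.

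CTCF peaks of the α-globin window numbered 5, 6 and 7 in CTRL and 5, 7 and 6 in VPA, or 6 ± 1 in each treatment (SD over 3 libraries, exact permutation test, p = 1). They covered 6196 ± 391 bp in CTRL compared with 6392 ± 1251 bp after VPA (exact permutation test, p = 0.9). The peaks merged into 7 regions, of which 4 were found in all 6 libraries, compared with 39.7% of all 69985 CTCF regions. Among all CTCF regions, 0.186% were called in every VPA library and 0 CTRL libraries and 0.326% in the reverse pattern, and of the 16 CTCF regions of both windows 0 did so.

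The strongest CTCF region, in NPRL3 intron 9 (chr16:96441-97575), ranked above 99.4% to 99.7% of the CTCF peaks of a library by −log10 q-value. Fragments over its summit numbered 3302, 1582 and 1368 in CTRL and 4781, 1696 and 1327 in VPA. Replicate 1 was the high library in both treatments, the opposite of the region near OR51M1 in the β window. The log2 fold change of fold enrichment was 0.61 (SE 1.01, limma adjusted p = 1.00, 95% interval −1.36 to 2.58).

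The region in intron 7 (chr16:105426-107785) had 461, 660 and 612 fragments in CTRL and 107, 697 and 569 in VPA. VPA replicate 1 was low, at 0.167 times the mean of the other VPA replicates when divided by library background. The other 5 libraries had between 461 and 697 fragments. The log2 fold change was −0.73 (SE 0.65, limma adjusted p = 1.00, 95% interval −1.999 to 0.53), and it was −0.54 without VPA replicate 1 and −0.22 without CTRL replicate 1. In intron 4 (chr16:117376-118405) fragments numbered 1202, 641 and 543 in CTRL and 1250, 612 and 508 in VPA, so that the libraries of each replicate number were close to each other (log2 fold change of fold enrichment −0.18, SE 0.69, limma adjusted p = 1.00). All 3 intronic CTCF summits lay within an H3K27ac peak only in some libraries. These were VPA replicate 3 for introns 9 and 4, and CTRL replicate 1 with all 3 VPA libraries for intron 7.

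At HBQ1 a CTCF region spanned the whole gene, chr16:179970-182534, and it was the only CTCF region within 1 kb of a globin start in all 6 libraries. A CTCF promoter peak in all 6 libraries was found at 24.9% of protein-coding genes. Its main summit lay 1.12 to 1.14 kb downstream of the HBQ1 start in all 6 libraries, past the end of the gene. Fragments there numbered 2847, 1418 and 1171 in CTRL and 4546, 1411 and 1176 in VPA, and replicate 1 was high in both treatments. Fold enrichment was 64.3, 97.9 and 92.1 in CTRL and 88.2, 131 and 74.3 in VPA, for a log2 fold change of 0.30 (SE 0.79, limma adjusted p = 1.00, 95% interval −1.24 to 1.85). In VPA replicate 3 the region was split into 2 peaks, and the second had its summit 48 bp before the HBQ1 start with 417 fragments. The main CTCF summit lay within an H3K27ac peak in replicates 2 and 3 of both treatments and in neither replicate 1 library, whose H3K27ac peaks at HBQ1 were narrower, at 873 and 872 bp compared with 1391 to 2626 bp.

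**Figure D4:**
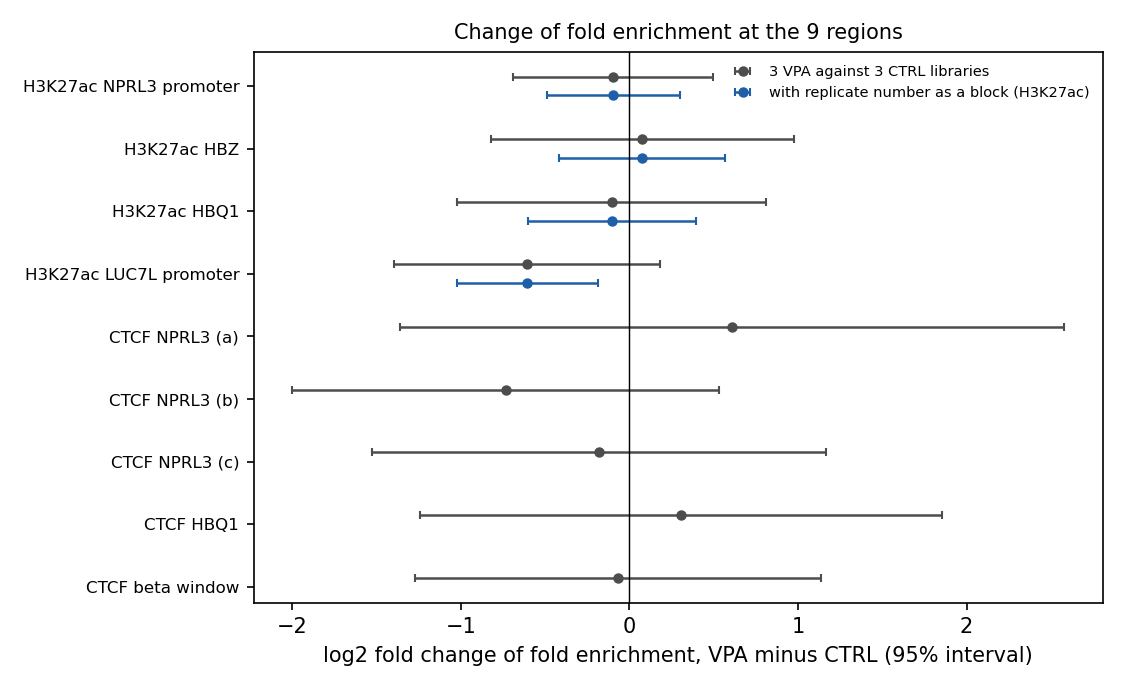
Log2 fold change of fold enrichment (VPA minus CTRL, points) with 95% intervals from limma at the 9 regions shared by all 6 libraries, and, for H3K27ac, the same with replicate number as a block. CTCF NPRL3 (a), (b) and (c) are the regions in introns 9, 7 and 4. Without the block all 9 intervals include 0, and with it only that of the LUC7L promoter does not.

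Among the other CTCF regions of the α window, the one at chr16:176132-176664, 0.318 kb before the start of HBA1, was called in CTRL replicates 2 and 3 with 58 and 47 fragments and in VPA replicates 1 and 2 with 159 and 50. It was in the copied sequence upstream of HBA1 and HBA2, with 89.5% of its 50-base words found again in the windows, and it held no motif match near its summit. A region at chr16:188554-189128, over the last exon of LUC7L, was called in 5 of 6 libraries with 53 to 79 fragments and held a motif match with 0 mismatches. HBZ, HBM and HBA2 had no CTCF promoter peak in any library.

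The proteins that control the globin genes were examined through their promoters, in a list of 30 genes for transcription factors and chromatin enzymes. H3K27ac was present in all 6 libraries at 21 of the 30 (61.0% of all genes). They include BCL11A and ZBTB7A, repressors of fetal globin, the histone deacetylases HDAC1 and HDAC2, which VPA inhibits, and LIN28B. It was absent from all libraries at 7, among them KLF1, TAL1, LMO2, GATA2 and RUNX1, factors of blood and red cell formation (30.5% of all genes). NFE2, a factor that binds the locus control region, and IKZF1, a lymphoid factor, were marked in 2 CTRL and 2 VPA libraries each. The list held 0 promoters marked in every VPA library and in 0 CTRL libraries, where 0.209% of all promoters had that pattern for H3K27ac and 0.0628% for CTCF. CTCF was present in all 6 libraries at 7 of the 30 promoters (24.9% of all genes) and in none at 11 (57.0% of all genes).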

How the data were processed

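Peak lists of 12 ChIP-seq libraries of HEK293T cells (H3K27ac and CTCF, CTRL and VPA, 3 replicates each) were used, and the 6 input libraries were not used here. Per the study's methods and the submitters' processing notes, the authors aligned paired-end reads to hg38 with Bowtie2 and called peaks with MACS3 3.0.0a7 in each library at a q-value of 0.05. Whether inputs served as control and how duplicate and multiply mapped reads were treated is not given in the sources used here. The deposited lists hold the fold enrichment of each summit (a ratio over local background), the authors' −log10 p-value and −log10 q-value, and a deposited score, which is 10 times the −log10 q-value with decimals dropped in 99.0% to 99.9% of peaks and was not used. Read totals are unknown. Fragments over each summit were recovered from the fold, taken as pileup plus 1 over background plus 1, and the Poisson p-value, and came out whole within 0.05 in nearly 100% of peaks.

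Genes came from GENCODE release 44 (19103 protein-coding genes of chromosomes 1 to 22). Peaks of an antibody sharing 1 bp were merged into regions. Window counts and covered lengths were compared by exact permutation tests over libraries (two-sided, Benjamini-Hochberg over 8 tests). Fold enrichment was compared with limma 3.58.1 (R 4.3.3) on log2 values centred on each library's median. The fit covered all regions with a peak in 6 of 6 libraries, with calls at an adjusted p of 0.05. Fits on fragments over the summit used log2 values centred in the same way. The fit was also run on simulated data, whose noise was drawn independently for each library. That run therefore does not bear on deviations shared by libraries of the same replicate number. Other steps used Python 3.11.15 with numpy 2.4.6, pandas 2.3.3, scipy 1.17.1 and matplotlib 3.10.9. Libraries with the same replicate number deviated from their group means together for H3K27ac (r = 0.865, 0.585 and 0.591 for replicates 1, 2 and 3, where replicate 2 correlated slightly better with another number, at 0.607). For CTCF they did so in replicates 1 and 3 (r = 0.340 and 0.477) but not in replicate 2 (r = −0.0451). The numbers were taken as pairs only where every r was over 0.1, so for H3K27ac the fit with a replicate block is given where it changes a call. All 10 globin genes, the protein-coding genes starting in the windows, and the regions found in all 6 libraries or at a globin gene are named, and others are counted or given by their values. The HBB and HBE1 flanking sites and the intron 7 region were singled out after their values were seen. The globin genes and the gene lists were chosen with earlier results of these data known. A gene of the kidney list and a gene of the erythroid list are not reported here and were left out of the counts.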

Additional observations from a re-analysis of the deposited data

How the results depend on the processing

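Of 352 values recomputed under alternative settings, 299 were counted as unchanged. Differences and log2 fold changes had to keep their sign, the latter also their side of the threshold, and counts of calls had to stay alike. Some could not change, since H3K27ac in the β window was 0 throughout and a replicate block leaves a window difference as it was. The total therefore does not measure how robust the results are. Limma calls for H3K27ac depended on the fit. They numbered 1187 higher and 1578 lower with the replicate block, 2194 and 4996 on fragments over the summit, 4579 and 6505 on fragments with the block, and 691 and 1498 with replicates 2 and 3 alone, an alternative chosen, like the MANE bodies below and the fragments with the block, after seeing the data. The cause was not tested. They were 0 and 0 without centring, with peaks below a −log10 q-value of 3 left out and without any single library, and CTCF calls were 0 throughout, with the replicate block too. The CTCF replicate numbers correlated at r = 0.340, −0.0451 and 0.477, and only replicates 1 and 3 correlated best with their own number. The block moved no CTCF count of calls.

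The difference in CTCF peaks of the β window (VPA minus CTRL) was 0 with 25 kb flanks and with replicates 2 and 3 alone, and 0.667 with MANE Select gene bodies, where the covered length differed by 206 bp. In the α window the CTCF peak difference was 0.333 at equal list lengths, and the covered length changed to −18.7 bp with 25 kb flanks. Leaving out each library in turn, the CTCF peak difference ranged from −2.17 to 1.33 (β) and from −0.5 to 0.5 (α), and the CTCF covered length from −1144 to 646.5 bp (β) and from −342 to 883 bp (α). For H3K27ac in α it ranged from 1.83 to 5.33 peaks and from 2423 to 6119 bp. For H3K27ac in α, 1 region was only in VPA without CTRL replicate 1, and 1 with replicates 2 and 3 alone, otherwise 0. With promoters of 2500 bp either side, 2 globin promoters (HBQ1 and HBZ) had H3K27ac in all 6 libraries. With the replicate block (sign flips within numbers, smallest p 0.25) no window test passed.

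Log2 fold changes that changed sign were 0.28 (CTCF, NPRL3 intron 4), 0.51 (CTCF near OR51M1) and 0.13 (H3K27ac, HBQ1) on fragments over the summit, with and without the block, and for H3K27ac at HBZ −0.0099 without centring and −0.15 with replicates 2 and 3 alone. On leaving out a library the H3K27ac changes ranged from −0.28 to 0.092 (NPRL3), −0.25 to 0.28 (HBZ), −0.32 to 0.090 (HBQ1) and −0.94 to −0.27 (LUC7L), and the CTCF changes from −0.12 to 1.24 (intron 9), −1.08 to −0.22 (intron 7), −0.56 to 0.39 (intron 4), −0.17 to 0.78 (HBQ1) and −0.62 to 0.28 (near OR51M1). Depth limits the absences, as no summit under 11 fragments was called, and more fragments were needed where the local background was higher.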
